A study of Mus musculus with 6 samples.

Results

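Malat1, Neat1, Meg3, Rian, Miat, H19, Gas5, Snhg1 and Snhg11 are well-described regulatory RNAs that act without being translated. They were taken by gene name from a table of 55487 genes, and all 9 of them passed the filter on low reads (10 or more reads in 3 or more libraries), as 20459 genes of the table did. RNA was measured in retinal vascular endothelial cells (VECs) of mouse pups at P7.5, in 3 libraries of the genotype Bmal1 FL/FL;tdTomato FL/+;Pdgf-icreER, here called Bmal1;CKO, and 3 libraries of the genotype tdTomato FL/+;Pdgf-icreER, here called control. Both groups carried the tamoxifen-inducible Cre and the tdTomato reporter, both were given tamoxifen on days P0.5 to P2.5, and both were on a C57BL/6J background. Cells positive for GFP and tdTomato were sorted as enriched VECs, so the gate and not a culture defined the cell type. The RNA was amplified from very small amounts and sequenced as polyadenylated RNA. Libraries are named here by the number of their column, control 1 to 3 and Bmal1;CKO 4 to 6. These numbers name libraries and do not pair them.

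Long noncoding RNAs work by several routes. Malat1 and Neat1 stay in the nucleus, Malat1 at nuclear speckles where splicing factors gather and Neat1 as the scaffold of paraspeckles, bodies that hold RNA-binding proteins and edited transcripts. Meg3, Rian and H19 are imprinted and expressed from the maternal chromosome, Meg3 and Rian as parts of one long transcribed region that also holds microRNAs and snoRNAs, H19 beside the growth factor gene Igf2. Miat is a nuclear RNA first tied to myocardial infarction that is also abundant in neurons and in the developing retina. Gas5, Snhg1 and Snhg11 are hosts, whose introns carry snoRNAs, the guides for chemical modification of ribosomal RNA, and the spliced Gas5 transcript is removed by nonsense-mediated decay when it is translated. Bmal1 (gene symbol Arntl) is the clock transcription factor that binds E-boxes together with CLOCK.

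The start sites of the genes were looked at first, because BMAL1 binds E-boxes and because host genes of snoRNAs often begin transcription at a run of pyrimidines, the 5′ terminal oligopyrimidine (TOP) start of ribosomal protein genes. RefSeq promoters (GRCm38.p6) run from 250 bases before to 50 bases after a start site, and 9 of them matched 7 of the genes; none were given for Neat1 and H19. The E-box CACGTG was in none of the 9 on either strand and in 7.15% of all 32851 promoters. CACGTT, a variant of it, was in 1 of the 9, that of Snhg1, and in 4.68% of all. A pyrimidine run from a C at the start site was 5 bases long in Gas5, 3 in Snhg1 and 6 in Miat. Of all promoters, 5.81% opened with such a run of at least 3 bases, 2.51% with at least 5 and 1.7% with at least 6. The cAMP response element TGACGTCA, the same on both strands, was in promoters of Meg3 and Gas5 and in 1.79% of all, and the TATA box TATAAA, sought on both strands, was in those of Meg3 and Snhg1 and in 13.6% of all. The 100 bases from 60 before to 40 after the start site are given for these genes, with the opening run and any of the searched motifs in capitals. The Gas5 stretch is chr1:161035106-161035205 (+ strand), that of Snhg1 chr19:8723427-8723526 (+ strand), that of Miat chr5:112228909-112229008 (− strand) and that of Meg3 chr12:109540936-109541035 (+ strand).
Gas5: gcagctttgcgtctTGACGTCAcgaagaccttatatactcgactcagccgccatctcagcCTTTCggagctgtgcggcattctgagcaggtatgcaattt
Snhg1: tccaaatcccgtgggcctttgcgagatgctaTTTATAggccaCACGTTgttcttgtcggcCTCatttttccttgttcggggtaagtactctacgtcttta
Miat: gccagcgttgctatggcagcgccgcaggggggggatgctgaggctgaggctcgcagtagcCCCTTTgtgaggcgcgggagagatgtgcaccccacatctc
Meg3: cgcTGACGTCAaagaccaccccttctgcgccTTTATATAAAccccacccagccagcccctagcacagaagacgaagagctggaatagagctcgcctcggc
In the Meg3 stretch the TATA box is present on each strand and the copies overlap. A match describes letters in a window and is not evidence of binding.

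Several of the RNAs are also precursors of microRNAs, and the mature sequences with the widest known use are given here to show what the long transcripts carry, with the seed (bases 2 to 8), the part that pairs with targets, in capitals. miR-675 lies in the exon of H19, miR-770 in Meg3 and miR-370 in an intron of Rian.
mmu-miR-675-5p: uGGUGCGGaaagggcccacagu
mmu-miR-675-3p: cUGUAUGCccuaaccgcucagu
mmu-miR-770-5p: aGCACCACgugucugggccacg
mmu-miR-770-3p: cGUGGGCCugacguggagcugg
mmu-miR-370-5p: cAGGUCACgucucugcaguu
mmu-miR-370-3p: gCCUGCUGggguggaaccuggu
The 6 seeds are all different. The annotated microRNA genes inside H19 and Meg3 had 0 reads in all 6 libraries, and the 4 inside Rian had 2 reads in all. The 10 snoRNAs inside Gas5, the 8 inside Snhg1 and the 2 inside Snhg11 also had 0 reads. Libraries of polyadenylated RNA do not capture these small RNAs well. The microRNAs in H19 and Meg3 and the snoRNAs in Gas5 and Snhg1 also lie wholly on exon bases of their hosts. How reads on shared bases were counted was not given, so 0 reads need not mean that a small RNA was absent. Values for the hosts are counts over their annotated exons.

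Each library held between 71145068 and 104017800 reads on genes. Arntl, the targeted gene, had 1700, 3489 and 2928 normalized counts (the read count divided by the size factor of the library) in control 1 to 3 and 1779, 2747 and 2415 in Bmal1;CKO 4 to 6, and its log2 fold change was -0.19 ± 0.36 (SE), with an adjusted p of 0.924 (limma). The groups overlapped, and a value per gene does not separate the floxed exon from the rest. Endothelial markers were present in every library, with a summed level of the 14 genes from 198248 to 379015 in control and from 118348 to 251918 in Bmal1;CKO, highest in control 1 and lowest in Bmal1;CKO 5. The 9 microglia markers summed to more, from 1386183 to 4103347 in control and from 2013410 to 3985845 in Bmal1;CKO, and the 10 rod markers also summed to more than the endothelial ones. Markers of cell types other than the labelled one were thus abundant in every library. Control 1 stood apart, with 0 reads for the amacrine marker Gad1, the ganglion cell marker Thy1 and the pericyte marker Abcc9, each of which had reads in the other 5 libraries, and control 3 had the highest sum of the 7 pericyte markers, 48808 against 2365 to 8900 in the other 5 libraries. Control 1 was the lowest library for 36.4% of tested genes and control 3 for 13.8%, where a tie was given to the library with the lower number. In bulk RNA, fewer cells of a type and less RNA per cell cannot be told apart.

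None of the 9 RNAs passed the test between genotypes at an adjusted p of 0.05 (limma-trend on log2(normalized count + 1), adjusted over all 20459 genes). No gene of the whole table passed it either (0.0% of tested genes), while 1007 genes (4.92%) had an unadjusted p under 0.05, and edgeR called 0 and DESeq2 67 genes, none of them among the 9. Miat was the only one of the 9 under that unadjusted threshold. It was also the only one whose groups did not overlap, 1 of 9 beside 11.2% of all tested genes. By estimate 7 of the 9 were higher and 2 were lower in Bmal1;CKO, beside 11570 higher and 8889 lower of all tested genes. The median log2 fold change of the 9 was 0.55, beside 0.11 over all tested genes. In edgeR the median of the 9 was -0.12 and that of all tested genes -0.03, so the sign of the median depended on the model. The exact permutation test used for single genes is two-sided, takes all 20 assignments of 3 libraries against 3 and cannot go below p = 0.1. All p-values measure the spread between these libraries.

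**Figure D1:**
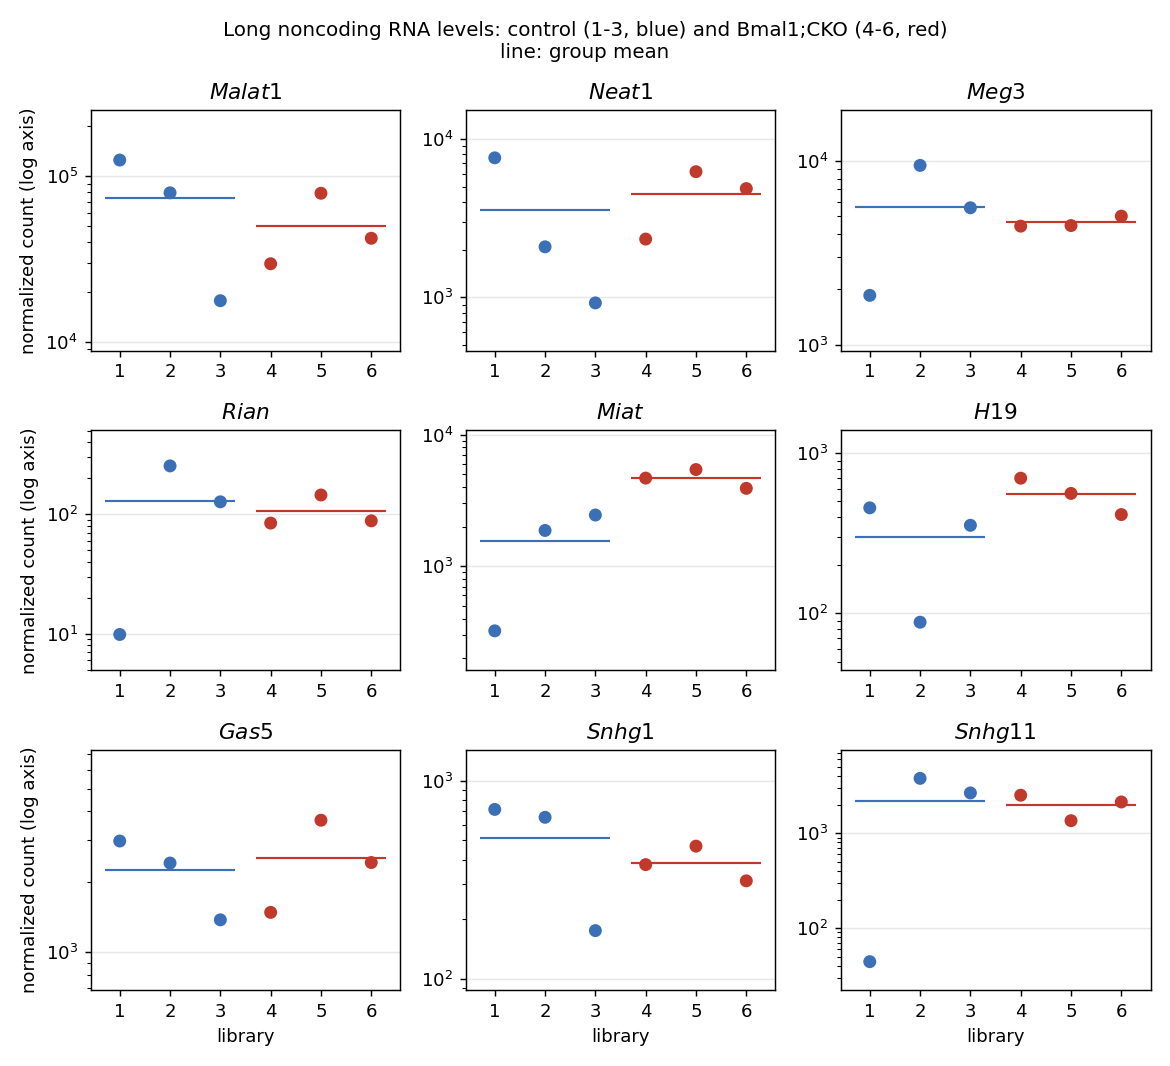
Normalized counts (log axis) of the 9 RNAs in each library, with control libraries 1 to 3 in blue, Bmal1;CKO libraries 4 to 6 in red and a line at the mean of each group. Only in Miat do all Bmal1;CKO points lie above all control points, and the 3 control points are spread more widely than the 3 Bmal1;CKO points in every panel but that of Gas5.

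Miat had the largest estimated difference of the 9, and it did not pass the test after adjustment. Miat (ENSMUSG00000097767) lies at chr5:112213228-112229395 on the − strand of GRCm38 and has 9293 exon bases. Its normalized counts were 322, 1871 and 2451 in control and 4681, 5437 and 3911 in Bmal1;CKO. Each Bmal1;CKO library was above each control library, and control 1 was far below the other 5. The means were 1548 ± 1101 (SD, n = 3) and 4676 ± 763 (SD, n = 3), a ratio of 3.02. The log2 fold change was 2.02 ± 0.71 (SE), with a 95% interval from 0.36 to 3.68, an unadjusted p of 0.0231 and, after adjustment, an adjusted p of 0.883 (limma). The exact permutation p was 0.1, the smallest that 3 against 3 allows. Without control 1 the log2 fold change was 1.11, and without any one of the other libraries it was never above 2.57. The unadjusted p passed 0.05 when Bmal1;CKO 4 (0.063) or Bmal1;CKO 5 (0.0643) was left out.

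Miat shares exon bases with an antisense transcript. Gm26953, a long noncoding RNA on the + strand at chr5:112215461-112233720, covers 2260 exon bases of Miat, and 30.4% of the exon bases of Miat are shared with other annotated genes. Gm26953 had 0, 26.9 and 16.4 normalized counts in control and 138, 66.5 and 43.7 in Bmal1;CKO, from 280 reads in all. These groups did not overlap either, although its difference in the limma fit had an unadjusted p of 0.0614 and its exact permutation p was 0.1. The use of strand in the counting was not given, and without strand reads of Miat and of Gm26953 cannot be told apart over the shared bases. Miat had between 262 and 6295 reads per library.

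Markers of retinal neurons and glia are given beside Miat, which neurons also express. The 8 amacrine markers summed to 6949, 24524 and 17835 normalized counts in control 1 to 3 and to 21337, 11868 and 17568 in Bmal1;CKO 4 to 6. The 8 ganglion cell markers summed to between 16203 and 30374 in control and between 17402 and 21316 in Bmal1;CKO. Both sums were lowest in control 1 and highest in control 2. Gene by gene, 7 of 8 amacrine markers were higher by estimate, with a median log2 fold change of 0.33. Of the 7 tested ganglion cell markers 3 were higher and 4 lower, with a median of -0.23. Without control 1 none of either list was higher, and the medians were -0.34 (amacrine) and -0.71 (ganglion). The 7 bipolar cell markers summed to 32069, 69697 and 71789 in control and to 47984, 81554 and 75123 in Bmal1;CKO. This sum was lowest in control 1 and highest in Bmal1;CKO 5, the libraries in which Miat was lowest and highest. Gene by gene, however, the estimate was negative for 5 of these 7 markers and positive for 2. Their median log2 fold change was -0.56, opposite in sign to that of Miat. The 6 cone markers were all higher by estimate, with a median of 0.64 and their lowest sum in control 1. Without control 1 the cone median was -0.12, with 2 higher and 4 lower. Of the 10 rod markers 1 was higher and 9 lower, with a median of -0.26. Müller glia markers ranged from 37922 to 46730 in control and from 44993 to 60094 in Bmal1;CKO, with 6 of 6 tested markers higher by estimate, of which Sox9, a transcription factor of these glia, had groups that did not overlap (log2 fold change 1.33, unadjusted p = 0.0238, adjusted p = 0.883, limma). The median of the 6 was 0.43, and without control 1 it was 0.06, with 4 of 6 higher. The sum of the endothelial markers had the reverse extremes to Miat, highest in control 1 (379015) and lowest in Bmal1;CKO 5 (118348). The part of these cell types in the difference in Miat was not tested.

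**Figure D2:**
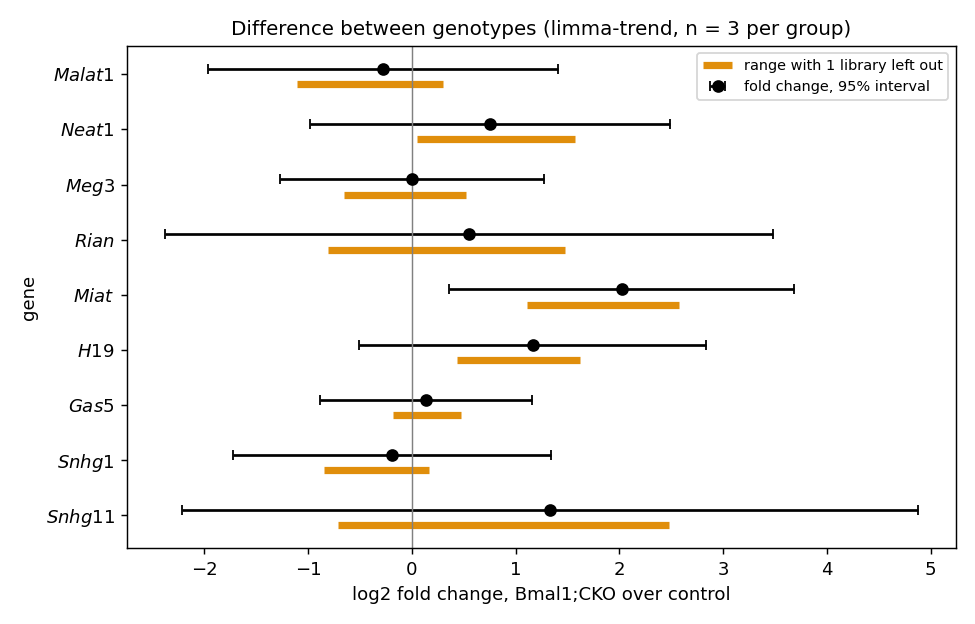
Log2 fold change of each RNA in Bmal1;CKO over control (black point) with its 95% interval (black bar) from limma-trend, n = 3 per group, and the range of the fold change when 1 library is left out (orange bar). The interval of Miat, from 0.36 to 3.68, is the only one of the 9 that leaves out 0, and the orange bars of Malat1, Meg3, Rian, Gas5, Snhg1 and Snhg11 cross 0.

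The nuclear-body RNAs Malat1 and Neat1 spanned a wide range within control. Malat1 (ENSMUSG00000092341, chr19:5795690-5802672, − strand) had 124934, 79257 and 17709 normalized counts in control and 29586, 78778 and 42155 in Bmal1;CKO. Both its highest and its lowest library were controls, 7.05-fold apart. Its log2 fold change was -0.28 ± 0.72 (SE), with a 95% interval from -1.96 to 1.40 and an adjusted p of 0.942 (limma), and the exact permutation p was 0.6. Without control 1 it became 0.30 and without control 3 it became -1.11.

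Neat1 (ENSMUSG00000092274, chr19:5824708-5845478, − strand) lies close to Malat1 on the same strand. Its normalized counts were 7589, 2082 and 922 in control and 2331, 6207 and 4855 in Bmal1;CKO. Control 1 was again the highest library and control 3 the lowest, 8.23-fold apart, and the Bmal1;CKO libraries lay between them. Bmal1;CKO was higher by a log2 fold change of 0.76 ± 0.75 (SE), with a 95% interval from -0.98 to 2.49 and an adjusted p of 0.884 (limma), and the exact permutation p was 0.7. It was 0.05 without control 3 and 1.57 without control 1, in which case the unadjusted p was 0.0115 and the adjusted p 0.493. The table gives 1 value for the short and the long isoform of Neat1, of which the long one builds paraspeckles.

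The protein partners of these RNAs varied less. None of the 12 paraspeckle proteins passed the test; 3 were higher and 9 lower by estimate, with a median log2 fold change of -0.07. The median stayed below 0 with each library left out, from -0.25 without Bmal1;CKO 6 to -0.02 without Bmal1;CKO 4, where 6 were higher and 6 lower. The 3 core proteins had log2 fold changes of -0.35 ± 0.27 (Sfpq), 0.36 ± 0.38 (Nono) and 0.06 ± 0.40 (Pspc1) (SE), all with overlapping groups. Matr3, a nuclear matrix protein that binds RNA, was the one with the smallest unadjusted p. It had 4931, 7610 and 6383 normalized counts in control and 2678, 3561 and 4422 in Bmal1;CKO. These groups did not overlap, and the log2 fold change was -0.84 ± 0.29 (SE), with an unadjusted p of 0.0229 and, after adjustment, an adjusted p of 0.883 (limma). Dazap1 and Smarca4, which followed it, differed by -0.56 and 0.41 on the log2 scale with overlapping groups.

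Of the 11 nuclear speckle proteins and Malat1 partners, 4 were higher and 7 lower by estimate, none passed the test, and the median was -0.10. Without control 2 the median was 0.07, with 6 higher and 5 lower. The splicing factors Srsf3 and Srsf2 had groups that did not overlap, lower in Bmal1;CKO. Srsf3 had 18398, 28780 and 17298 normalized counts in control and 14450, 15963 and 14646 in Bmal1;CKO. It differed by -0.48 ± 0.27 (SE) on the log2 scale, with an unadjusted p of 0.113. Srsf2 differed by -0.26 ± 0.23 (SE) and Sart1 by 0.20 ± 0.27 (SE) on the same scale.

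Protein-coding genes listed as neighbours of Malat1 and Neat1 were compared as well. This is a chosen list and not every gene of the region, and the distances of its genes, Ssh3 among them, were not measured. All 10 tested genes of the 11 listed were higher in Bmal1;CKO by estimate, beside 11570 of all 20459 tested genes. Their median log2 fold change was 0.45, beside 0.11 over all tested genes, and none passed the test. With edgeR (TMM) all 10 were higher too, with a median of 0.37, and without control 1 or Bmal1;CKO 6 it was 9 of 10. The median was 0.29 without control 2 and 0.84 without control 3. Slc25a45, a mitochondrial carrier gene, had 7315, 3897 and 8250 normalized counts in control and 12935, 9393 and 9365 in Bmal1;CKO. The groups did not overlap, and its log2 fold change was 0.76 ± 0.34 (SE), with an unadjusted p of 0.0562. Ssh3, a cofilin phosphatase, differed by 2.06 ± 1.09 (SE) at low counts, and Pola2, a subunit of DNA polymerase alpha, by 0.47 ± 0.31 (SE), both with overlapping groups. Of these 10 genes, 6 were lowest in control 2, which was the lowest library of neither Malat1 nor Neat1.

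The maternally expressed RNAs Meg3 and Rian were nearly level between genotypes in the mean and low in control 1. Meg3 (ENSMUSG00000021268, chr12:109541001-109571726, + strand) had 1853, 9462 and 5560 normalized counts in control and 4415, 4448 and 5006 in Bmal1;CKO. The Bmal1;CKO libraries differed by only 1.13-fold, and the controls by 5.11-fold on both sides of them. The log2 fold change was 0.00 ± 0.55 (SE), with a 95% interval from -1.27 to 1.28 and an adjusted p of 0.999 (limma), and the exact permutation p was 0.7. Without control 1 it was -0.65 with an unadjusted p of 0.0625, and edgeR gave -0.28 over all libraries.

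Rian (ENSMUSG00000097451, chr12:109603808-109661716, + strand), a host of C/D box snoRNAs, was the scarcest of the 9. It had 9.84, 254 and 127 normalized counts in control and 84.4, 145 and 88.1 in Bmal1;CKO, and the value of control 1 came from 8 reads. Control 1 was 25.8-fold below control 2, and all Bmal1;CKO libraries lay between them. This gave a log2 fold change of 0.55 ± 1.26 (SE), with a 95% interval from -2.38 to 3.48 and an adjusted p of 0.934 (limma), and the exact permutation p was 0.8. It became -0.80 without control 1, and edgeR gave -0.30, so its direction depended on the library and the model.

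The rest of the Dlk1-Dio3 region was low in control 1 too. All 6 tested genes of the 8 in the list, Meg3 and Rian among them, had their lowest value there, beside 36.4% of tested genes. For Dio3os this was a tie at 0 with control 3 and Bmal1;CKO 6. By estimate 5 were higher and 1 lower, with a median log2 fold change of 0.40, and none passed the test. Without control 1 it was 1 higher and 5 lower, with a median of -0.61, and edgeR over all libraries also gave 1 higher and 5 lower, with a median of -0.21. The median was 1.04 without control 2 and 0.87 without control 3. Dlk1, the paternally expressed Notch-like ligand of the region, had 0, 444 and 2822 normalized counts in control and 952, 614 and 666 in Bmal1;CKO. Mirg, a host of microRNAs downstream of Rian, ranged from 4.92 to 38.6 in control and from 18.1 to 29.5 in Bmal1;CKO. Dio3os, antisense to the deiodinase gene Dio3, was at 0 in 3 libraries and reached 66.1. Rtl1, a retrotransposon-derived gene, had 2.46, 8.35 and 56.4 in control and 0, 0.864 and 0.824 in Bmal1;CKO and Dio3 at most 1.65, and both were under the filter on reads. The antisense long noncoding RNA annotated over Meg3 was not analysed here.

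H19 was higher in the mean in Bmal1;CKO, with overlapping groups. H19 (ENSMUSG00000000031, chr7:142575529-142578143, − strand) had 456, 88.2 and 355 normalized counts in control and 699, 561 and 414 in Bmal1;CKO. Control 1 lay above Bmal1;CKO 6, and control 2 was the lowest library by a wide margin. The means were 300 ± 190 (SD, n = 3) and 558 ± 142 (SD, n = 3). The log2 fold change was 1.16 ± 0.72 (SE), with a 95% interval from -0.51 to 2.84 and an adjusted p of 0.883 (limma), and the exact permutation p was 0.2. It was 0.44 without control 2 and 1.62 without control 1, where the unadjusted p was 0.0333. The microglia markers, which summed to the least in control 2 (1386183 against 1693786 or more in the other libraries), had their lowest library in common with H19, and their part in it was not tested.

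Igf2, the growth factor next to H19, had the same order as H19 in control and another in Bmal1;CKO. It had 169, 19.5 and 52.2 normalized counts in control and 39.4, 74.3 and 75.0 in Bmal1;CKO, which gave a difference of 0.11 ± 1.05 (SE) on the log2 scale. In the neighbouring Kcnq1 region the cell cycle inhibitor Cdkn1c was even between libraries, from 3149 to 5149 in control and from 3692 to 5191 in Bmal1;CKO, with a log2 fold change of 0.15 ± 0.28 (SE). Kcnq1ot1, the regulatory long noncoding RNA of that region, differed by -0.20 ± 0.55 (SE) on the log2 scale. Nap1l4, a histone chaperone gene, differed by 0.22 ± 0.37 (SE), and the transcription factor gene Ascl2 by 2.22 ± 2.27 (SE) with 0 reads in control 2. Of the 10 genes in the list 7 were tested, 6 higher and 1 lower by estimate with a median of 0.22, and none passed the test. Without control 2 it was 3 higher and 4 lower, with a median of -0.23, and edgeR also gave 3 higher and 4 lower, with a median of -0.10. The median was 0.89 without control 1, 0.06 without control 3 and 0.33 without Bmal1;CKO 4.

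The snoRNA hosts Gas5 and Snhg1 shared a low level in control 3. Gas5 (ENSMUSG00000053332, chr1:161034422-161038539, + strand) had 2985, 2403 and 1374 normalized counts in control and 1478, 3663 and 2415 in Bmal1;CKO. It was the most even of the 9 over the 6 libraries, within 2.67-fold. Between genotypes the log2 fold change was 0.14 ± 0.44 (SE), with a 95% interval from -0.89 to 1.16 and an adjusted p of 0.955 (limma), and the exact permutation p was 0.7. The protein-coding gene Zbtb37 runs the other way across the start of Gas5 without sharing exon bases.

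Snhg1 (ENSMUSG00000108414, chr19:8723475-8726443, + strand), the host gene of the U22 snoRNA and others, had 716, 653 and 175 normalized counts in control and 377, 467 and 312 in Bmal1;CKO. Control 3 was the lowest library and the other controls were the highest. The log2 fold change was -0.19 ± 0.66 (SE), with a 95% interval from -1.72 to 1.34 and an adjusted p of 0.958 (limma), and the exact permutation p was 0.5. Without control 3 it was -0.85, and without control 1 it was 0.17.

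Snhg11 (ENSMUSG00000044349, chr2:158375638-158386151, + strand), a host known from neurons and annotated as protein coding, had another order. Its normalized counts were 44.3, 3787 and 2659 in control and 2515, 1356 and 2135 in Bmal1;CKO. Control 1 was 85.5-fold below control 2, the widest span of the 9, and the Bmal1;CKO libraries lay within 1.85-fold of each other. The log2 fold change of 1.33 ± 1.52 (SE, 95% interval from -2.21 to 4.88, adjusted p = 0.888, limma) rested on control 1: without it the value was -0.71, and edgeR gave -0.12 with all libraries. The exact permutation p of the means was 0.9. The amacrine and ganglion cell marker sums were also lowest in control 1, and their part in the level of Snhg11 was not tested.

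Many other snoRNA hosts were also low in control 3. The list of 15 other tested host genes also held Mir17hg, which is a host of microRNAs. Of the 15, 9 had their lowest value in control 3, beside 13.8% of tested genes. The median deviation of the 15 in control 3 from the mean of each gene was -0.72 on the log2 scale, beside 0.11 over all tested genes. Between genotypes 3 of the 15, Mir17hg among them, were higher and 12 lower by estimate, with a median of -0.16, and none passed the test. The sign of that median was not stable, since it was 0.01 without control 1, 0.12 without control 2 and -0.71 without control 3. The smallest unadjusted p among them belonged to Mir17hg (0.149), the host of the miR-17 cluster, Snhg18 (0.170) and Snhg9 (0.295). Mir17hg was also lowest in control 1, as Snhg11 was.

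**Figure D3:**
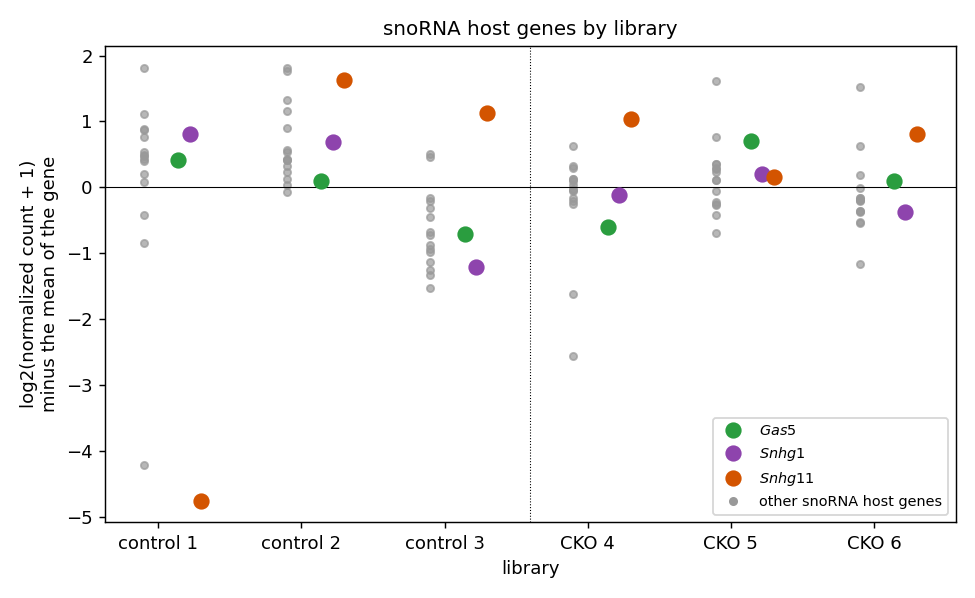
Deviation of log2(normalized count + 1) from the mean of each gene over the 6 libraries, by library. Shown are Gas5 (green), Snhg1 (purple), Snhg11 (orange) and the 15 other tested genes of the host list (grey), the microRNA host Mir17hg among them. Most points of control 3 lie below 0, Gas5 and Snhg1 among them, and Snhg11 lies far below 0 in control 1.

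Genes that could act with the hosts on RNA turnover and translation were compared in the same way. The 10 nonsense-mediated decay factors had 3 higher and 7 lower by estimate and a median log2 fold change of -0.18, and none passed the test. Without control 1 it was 6 higher and 4 lower, with a median of 0.10, and without control 3 the median was -0.31. Upf1, the helicase of the pathway, differed by -0.25 ± 0.31 (SE). Smg9, a regulator of the kinase SMG1, had 2525, 1612 and 1986 normalized counts in control and 3751, 3026 and 2604 in Bmal1;CKO, groups that did not overlap, with a log2 fold change of 0.62 ± 0.30 (SE) and an unadjusted p of 0.0702. Of the 10 translation genes with a TOP start, 4 were higher and 6 lower, the median was -0.03 and none passed the test. With 1 library left out that median ran from -0.21 (without Bmal1;CKO 4) to 0.07 (without control 1). Nap1l1, a histone chaperone gene, was lower in each Bmal1;CKO library than in any control (log2 fold change -0.73 ± 0.30 (SE), unadjusted p = 0.0404, adjusted p = 0.883, limma). Npm1, the nucleolar protein nucleophosmin, differed by -0.55 and Pabpc1, the poly(A)-binding protein, by -0.43 on the log2 scale, with overlapping groups.

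Per kb of exon, Malat1 had the highest level of the 9 and Rian the lowest. These are levels in libraries of polyadenylated RNA, so RNA that this selection captured poorly is underrated. Malat1 had 8889 ± 5709 normalized counts per kb (SD over 6 libraries), and its lowest library, at 2536, was above the highest library of any of the others. Gas5 followed with 635 ± 233 per kb. Miat had 335 ± 206, Meg3 283 ± 137, Snhg11 244 ± 149, Neat1 192 ± 126, H19 174 ± 83.9 and Snhg1 152 ± 69.4 per kb. The level of Neat1 was divided by all its 20771 annotated exon bases. Its short and long isoforms were not separated, so its place in this order depends on the length used. From Gas5 down to Snhg1, each had a range over the libraries that overlapped that of the next. Within single libraries Gas5 was above Miat in 5 of 6 and Miat above Meg3 in 3. Meg3, Snhg11, Neat1 and H19 were each above the next in 4. The order of neighbours thus changed with the library. Rian had 6.48 ± 4.46 per kb, and its highest library, at 13.9, was below the lowest of Snhg1. It was not below every library of the others, since Snhg11 had 5.20 per kb in control 1. In control alone the order changed with the library, since Miat had 34.7 per kb in control 1 and 264 in control 3. Among all tested genes, not scaled by length, Malat1 stood at the 96.9th percentile or above in every library and Rian between the 20.1st and 34.5th.

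**Figure D4:**
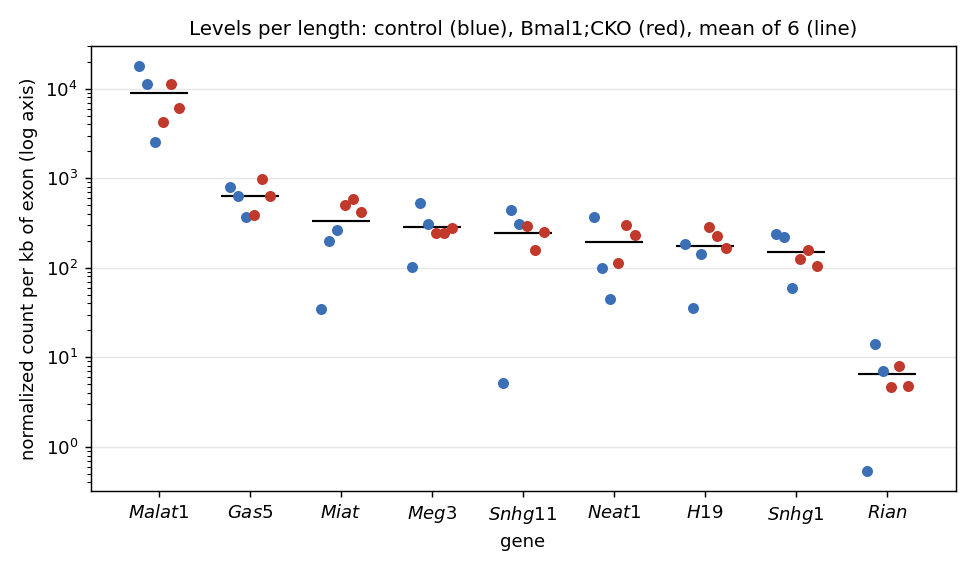
Normalized counts per kb of exon (log axis) of the 9 RNAs, ordered by the mean over 6 libraries (black line), with control libraries in blue and Bmal1;CKO libraries in red. Malat1 lies apart above the others. From Gas5 to Snhg1 the range of each RNA overlaps that of the next. The control 1 point of Snhg11 lies within the range of Rian, which has the lowest mean.

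Likeness of pattern was measured as the Pearson coefficient over the 6 libraries on log2(normalized count + 1), among 14173 genes that had 10 or more reads in all libraries and a mean of 100 or more normalized counts. With 6 points that share depth, amplification and cell content, a high coefficient is common: between 21 (Gas5) and 397 (Snhg11) genes exceeded 0.95 with one of the 9, and the values are descriptions only. Malat1 was most like Prpf4b, a kinase of the splicing machinery (0.995), Mier1 (0.990) and Srrm1, a speckle protein (0.989). Neat1 was most like Smg6, the endonuclease of nonsense-mediated decay (0.988), Itsn2 (0.983) and Med12l (0.982).

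For the imprinted RNAs, Meg3 was most like 5330413P13Rik, Tspan7 and Ormdl3 (0.990 to 0.995), and Rian most like Lcmt1, Hars2 and Mapk6 (0.994 to 0.996). H19 was most like Pbxip1 (0.998), Grn, the gene of progranulin (0.997), and Cx3cr1, the fractalkine receptor of microglia (0.997). Cx3cr1 is one of the microglia markers. Miat was most like Zfp219, Agap3 and Bcan, the last of them the gene of the neural matrix protein brevican (0.994 to 0.995).

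Among the hosts, Gas5 was most like Naca, a ribosome-associated protein gene (0.994), Klhl24 (0.992) and Ccdc88c (0.990). Snhg1 was most like U2af1, the small subunit of a splicing factor (0.995), Zfp326 (0.990) and Grcc10 (0.987). Snhg11 was most like Crtac1, Nsg2, a neuronal vesicle protein gene, and Zfp811 (0.998 to 0.999). All 3 of these genes were also lowest in control 1, Nsg2 with 16.0 normalized counts there against 1182 or more in the other libraries.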

How the data were processed

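RNA was measured in 6 libraries of sorted VECs, 3 per genotype. The authors used FastQC and Trimmomatic, aligned the reads with Bowtie to mm10 (GRCm38), counted them with featureCounts and deposited a signal per gene and library, namely read counts scaled by the size factors of DESeq2. Tool versions and the use of strand are not given in the sources used here. The 6 columns of the authors' own comparison (mean, fold change, SE, test statistic and p-values) were not used. Column numbers disagree with the sample numbering, so columns served as replicates of their genotype only.

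Whole reads were recovered (100% of values within 0.01 of a whole read) and genes reaching 10 reads in 3 or more libraries were tested with limma-trend (limma 3.58.1, R 4.3.3), pseudocount 1, with Benjamini-Hochberg adjustment. Fold changes are differences of means on the log2(normalized count + 1) scale. The added 1 shrinks changes of low genes, while a single library near 0 weighs heavily on a mean of logs. Dlk1, at 0 in control 1, had a log2 fold change of 2.76 although its mean count was lower in Bmal1;CKO (744 against 1089). Alternatives were edgeR 4.0.16, DESeq2 1.42.0, voom, other pseudocounts and filters, and each library left out. The tests were tested on simulated data. Intervals of fold changes come from the spread between libraries. No interval was given to a single count, and a count of 0 reads entered the fits like any other value. Positions are those of the table, 1-based, GRCm38; exon lengths are from GENCODE M21; sequences are from RefSeq.

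The 9 RNAs and all lists were chosen with earlier results of these data known. Named are the 9 RNAs, from each list the genes called or else at most 3 of smallest unadjusted p, stated partners and neighbours, and the 3 genes of likest pattern. Genes named after their values were seen are the markers at 0 reads, Sox9 and Gm26953.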

Additional observations from a re-analysis of the deposited data

How the results depend on the processing

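None of the 9 RNAs reached an adjusted p of 0.05 under any of the 15 alternatives. Genes of the whole table that did numbered 0 in limma-trend (1007 at an unadjusted p under 0.05) and 67 in DESeq2, 1 with at least 1 read in total, 1 with at least 10 reads in every library, and 0 to 6 with 1 library left out (6 without control 1). Of the 9, 1 had an unadjusted p under 0.05, and 0 to 3 did with 1 library left out: 3 (Miat, H19 and Neat1) without control 1, where 8.65% of all tested genes did, and 0 without Bmal1;CKO 4 or 5. Members with groups that did not overlap numbered 1, and 1 to 5 with 1 library left out: 5 without control 1 (25.7% of all tested genes), 3 without control 3 (30.7%) and 2 without Bmal1;CKO 6 (19%). The median log2 fold change of the 9 was 0.55 and became -0.12 (edgeR, TMM), -0.11 (edgeR, DESeq2 size factors) and -0.11 (DESeq2), and the cause was not tested. With 1 library left out it ran from 0.14 to 0.69, with 0.14 without control 3, 0.30 without control 1 and 0.30 without Bmal1;CKO 5. Miat, H19 and Neat1 kept their direction under all 15 alternatives. In the count models (edgeR TMM, edgeR with DESeq2 size factors and DESeq2 in turn) Meg3 had -0.28, -0.28 and -0.28, Rian -0.30, -0.30 and -0.30, and Snhg11 -0.12, -0.11 and -0.11, and Meg3 had -0.027 in voom. With 1 library left out, ranges were -1.11 to 0.30 (Malat1), -0.65 to 0.52 (Meg3), -0.80 to 1.47 (Rian), -0.18 to 0.47 (Gas5), -0.85 to 0.17 (Snhg1), -0.71 to 2.48 (Snhg11), 1.11 to 2.57 (Miat), 0.44 to 1.62 (H19) and 0.05 to 1.57 (Neat1). Rian could not be tested with at least 10 reads in every library. No paired analysis was possible because the columns carry numbers that do not match the replicate numbers of the samples.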

Other observations

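Imprinted genes elsewhere in the genome that regulate growth were divided. Of 12 tested genes of 13, 6 were higher and 6 lower by estimate, with a median log2 fold change of 0.11, and none passed the test at an adjusted p of 0.05. Without control 1 the median was -0.08, and without control 3 it was 0.27. Grb10, an adaptor that dampens insulin and growth factor signalling, had 3101, 2296 and 1656 normalized counts in control and 996, 987 and 1711 in Bmal1;CKO. Its log2 fold change was -0.94 ± 0.38 (SE), and the groups overlapped by Bmal1;CKO 6 alone. Peg10, a retrotransposon-derived gene needed in the placenta, had 0, 17.6 and 19.3 in control and 87.2, 67.4 and 78.3 in Bmal1;CKO, groups that did not overlap. Nnat, a membrane protein of neural cells, ranged from 26408 to 52003 in control and from 47414 to 100750 in Bmal1;CKO.

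Of 29 other named long noncoding RNAs 24 were tested, 11 higher and 13 lower by estimate, with a median of -0.12, and none passed the test. In edgeR it was 7 higher and 17 lower (median -0.26), without control 2 it was 15 higher and 9 lower (0.23), without Bmal1;CKO 4 also 15 and 9 (0.17), and without control 3 it was 13 and 11 (0.11). Oip5os1, also known as cyrano, had 7160, 8563 and 4876 normalized counts in control and 4246, 5167 and 4743 in Bmal1;CKO. Ftx, a regulator of X inactivation, had 6.15 in control 1 against 144 or more in the other 5 libraries. Six3os1, transcribed beside the eye field gene Six3, was also lowest in control 1, at 1766 against 3693 or more.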
